A study of Mus musculus with 180 samples.

Results

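BMS-911543 is a small-molecule inhibitor designed against the Janus kinase JAK2. The comparison covers 9 of the 180 RNA-seq samples of a panel of 58 clinical kinase inhibitors (CKIs), namely the 3 samples whose label names BMS911543 and the 6 samples whose label names the vehicle DMSO. All samples were wild type bone marrow-derived macrophages (BMDM), grown in culture from the bone marrow of male C57/BL6 mice according to the study's methods. Cells were kept for 1 h with the CKI or with DMSO and then for 2 h with LPS at 10 ng/ml, and this stimulus was shared by the treated cells and by the controls. No unstimulated sample was compared, so the values show the difference between CKI and vehicle in stimulated cells and not the response to LPS itself. The replicates are described as independent biological replicates, and the labels divide the DMSO samples into set 1 and set 2 with replicates 1 to 3 in each. Of 45070 genes in the table, the 12714 whose normalized values averaged 10 or more across the panel were tested. A normalized value is a read count on the exons of a gene after scaling of each sample by the authors, and it is not corrected for gene length.

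LPS, from the outer membrane of Gram-negative bacteria, activates TLR4 on macrophages and through it the MAP kinases, NF-kB and the interferon regulatory factor IRF3. Interferon beta released by the cells then acts on the type I interferon receptor, whose kinases JAK1 and TYK2 phosphorylate STAT proteins and drive the interferon-stimulated genes. JAK2 serves other receptors, among them those for GM-CSF and interferon gamma, and proteins of the SOCS family limit the signal. In the panel, BMS-911543 was one of several compounds directed at the Janus kinase family, and its concentration was set from binding to the quinone reductase NQO2 on kinase-affinity beads. JAK1, JAK3, LYN and the M-CSF receptor CSF1R are also named among its reported targets.

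The 9 samples had totals of 9481416 to 11094387 normalized values. An estimate of each sample's scale, which succeeded for 8 of the 9, gave 11.4 M to 13.9 M counted reads, with 12.6 M to 13.9 M in the 3 BMS-911543 samples. It failed for DMSO set 2 replicate 2, whose number of counted reads is therefore not known. Macrophage identity was in place, since all 10 macrophage markers were expressed and none of them passed the test between BMS-911543 and DMSO. In the fit with a replicate block, 1 macrophage marker was called higher and 1 lower. Of 5 NK cell markers, 4 were at 0 in all 9 samples, and their sum reached at most 2 in BMS-911543 and 3 in DMSO. T cell markers summed to 40 to 71 against 25 to 119, and B cell markers to 11 to 15 against 1 to 21. Neutrophil markers summed to 1035 to 1092 in BMS-911543 and to 432 to 1293 in DMSO, with no member called and, with the replicate block, 1 called higher. All 8 tested neutrophil markers had a log2 fold change above 0, with a median of 0.60, and their part in the results was not tested. Mitochondrial genes took 1.03% to 1.22% of the values in BMS-911543 and 0.759% to 1.94% in DMSO, so the groups overlapped. DMSO set 2 replicate 2 stood apart from the other vehicle samples in several of the genes described here, and fold changes without it are given beside those genes.

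BMS-911543 mostly lowered transcripts. It changed 1087 genes (8.55% of those tested) at an adjusted p under 0.05, of which 1027 (8.08%) fell and 60 (0.472%) rose. The falls were also the larger changes, since 497 genes fell by at least 1 on the log2 scale and 5 rose by as much. Among the 58 CKIs, BMS-911543 ranked 12 by the number of changed genes and 5 by the number of lowered genes, and all other CKIs were compared with the same DMSO samples. The median log2 fold change over all tested genes was 0.00, and in bulk RNA a loss of cells of 1 type and a loss of RNA per cell cannot be told apart. With the replicate numbers as a block, 181 genes rose (1.42%) and 1398 fell (11%). With the 3 BMS-911543 and 6 DMSO samples fitted alone, 520 fell and 14 rose. Without DMSO set 2 replicate 2, 808 fell and 39 rose, and without BMS-911543 replicate 1, 606 fell and 36 rose. The raised genes numbered 34 without BMS-911543 replicate 2, 17 without BMS-911543 replicate 3 and 134 without DMSO set 2 replicate 1. Without any overlap of the groups were 1133 genes (8.91%). In 854 of them (6.72%) all 3 BMS-911543 samples lay below all 6 DMSO samples, and in 279 (2.19%) all 3 lay above them.

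**Figure D1:**
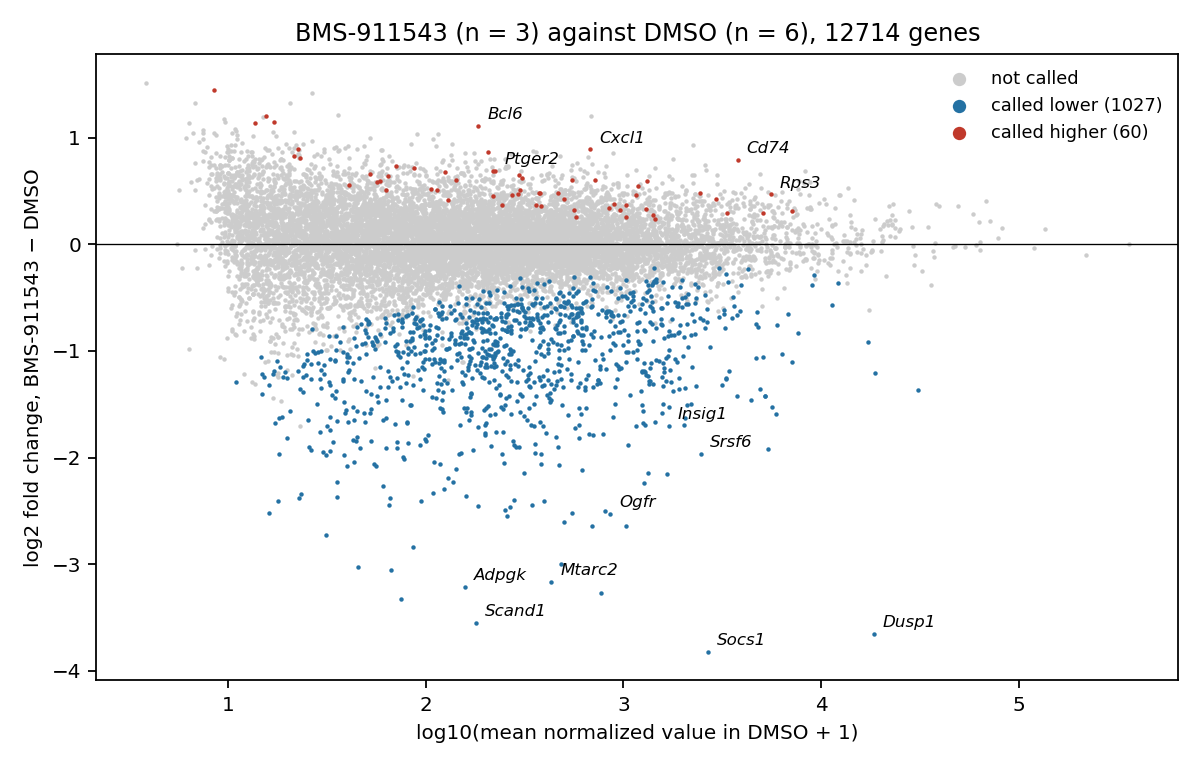
Log2 fold change of BMS-911543 (n = 3) against DMSO (n = 6) on the y axis, and log10 of the mean normalized value in DMSO + 1 on the x axis, for 12714 genes. The 1027 genes called lower (blue) reach -3.82 (*Socs1*), while only 5 of the 60 called higher (red) reach 1.

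*Socs1* and *Dusp1*, which encode feedback inhibitors of cytokine and MAP kinase signaling, had the largest falls of the genes named here. *Socs1* encodes the SOCS protein that binds and inhibits Janus kinases. In the BMS-911543 samples its values were 85, 316 and 108, against 3582, 2986 and 618 in DMSO set 1 and 2451, 5735 and 754 in DMSO set 2. The groups did not overlap, although the 6 DMSO samples themselves spread over a 9.28-fold range and the replicates numbered 3 were the lowest of both sets. The log2 fold change was -3.82 (SE 0.55, adjusted p = 6.6e-08 by limma), a fitted 14.1-fold fall. *Dusp1*, the phosphatase that switches off p38 and JNK, had values of 846, 3825 and 717 in BMS-911543. In DMSO it ranged from 7541 to 27409, so that every treated sample lay below every vehicle sample. It fell by 3.65 on the log2 scale (SE 0.40, adjusted p = 2.6e-12). A second MAP kinase phosphatase gene, *Dusp4*, had values of 85, 202 and 67 in BMS-911543 against 235 to 452 in DMSO (log2 fold change -1.70, SE 0.40, adjusted p = 0.00085).

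The promoters of *Socs1* and *Dusp1* are shown because these genes had the largest falls. Both windows are the 250 bases before the start of the gene in RefSeq (GRCm38.p6, the mm10 assembly), upstream of the first exon and written along the gene's own strand. *Socs1* lies on the minus strand, with the window at chr16:10785537-10785786, and *Dusp1* lies on the minus strand as well, with the window at chr17:26508473-26508722. Capitals mark matches on either strand to the letters GCGTG (aryl hydrocarbon receptor), TGACNNNGC (NRF2), TTCNNNGAA (STAT), GAAANNGAA (ISRE), TGACGTCA (CREB), TGANTCA (AP-1) and CACGTG (E-box).
Socs1: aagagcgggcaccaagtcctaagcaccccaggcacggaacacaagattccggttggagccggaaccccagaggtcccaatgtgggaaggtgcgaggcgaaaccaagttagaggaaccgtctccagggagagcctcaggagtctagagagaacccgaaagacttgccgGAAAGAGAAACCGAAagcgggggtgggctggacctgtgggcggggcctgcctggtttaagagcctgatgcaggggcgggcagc
Dusp1: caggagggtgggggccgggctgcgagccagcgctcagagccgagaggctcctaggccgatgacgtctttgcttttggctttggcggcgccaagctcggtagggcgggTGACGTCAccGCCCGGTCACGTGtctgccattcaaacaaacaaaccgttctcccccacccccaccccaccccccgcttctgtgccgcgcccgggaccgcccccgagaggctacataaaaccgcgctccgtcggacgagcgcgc
The *Socs1* window holds 2 overlapping matches to the ISRE letters, the interferon-stimulated response element. The *Dusp1* window holds 3 matches, to the CREB, NRF2 and E-box letters, the last 2 of which overlap. In windows of 300 bases, from 250 before to 50 after the start, the ISRE letters occurred in 3 of the 13 genes with a window among the 14 that fell most (23.1%) and in 7.65% of the 9133 tested genes with a window. Over all 812 lowered genes with a window the share was 4.19%. The CREB letters occurred in 2 of the 13, in 3.45% of the 812 and in 3.22% of the 9133. For the other letters, the share over the 812 was 55.9% for the aryl hydrocarbon receptor (51.2% of the 9133), 15.9% for NRF2 (1371 of the 9133), 6.16% for STAT (7.0%), 3.57% for AP-1 (5.04%) and 12.2% for the E-box (10.5%). These shares describe letters only, and binding was not measured.

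The other genes among the 14 largest falls, taken among genes without overlap of the groups and with a mean of at least 50 in the higher group, belong to varied functions. *Adpgk*, which encodes the ADP-dependent glucokinase, had 12, 18 and 12 in BMS-911543 and 48 to 301 in DMSO, a fall of 3.21 on the log2 scale (SE 0.49, adjusted p = 1.8e-07). *Mtarc2*, for a molybdenum enzyme of mitochondria, had 22, 91 and 38 against 239 to 842. *C1qbp*, for a mitochondrial matrix protein, had 21, 154 and 40 against 166 to 913. Replicate 2 was the highest of the 3 treated samples in each of these genes. *Tomm40*, the channel through which proteins enter mitochondria, had 47, 128 and 71 in BMS-911543 and 318 to 464 in 5 DMSO samples, while DMSO set 2 replicate 2 reached 960 (log2 fold change -2.61, and -2.40 without this sample). *Scand1* had 6, 21 and 7 against 29 to 355 and *F8a* had 2, 10 and 10 against 22 to 103, both near the level at which counting error is large. *Ogfr*, the opioid growth factor receptor gene, had 110, 155 and 165 against 474 to 1182 (log2 fold change -2.53, SE 0.38, adjusted p = 1.6e-07). *Rcn2*, *Akirin1*, *Nptx1*, *Sap30* and 0610012G03Rik complete the 14, with log2 fold changes from -3.27 to -2.52 and no overlap between the groups. All 14 fell in each of the alternative fits, apart from *Nptx1* in 1 of 22 (adjusted p up to 0.063).

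**Figure D2:**
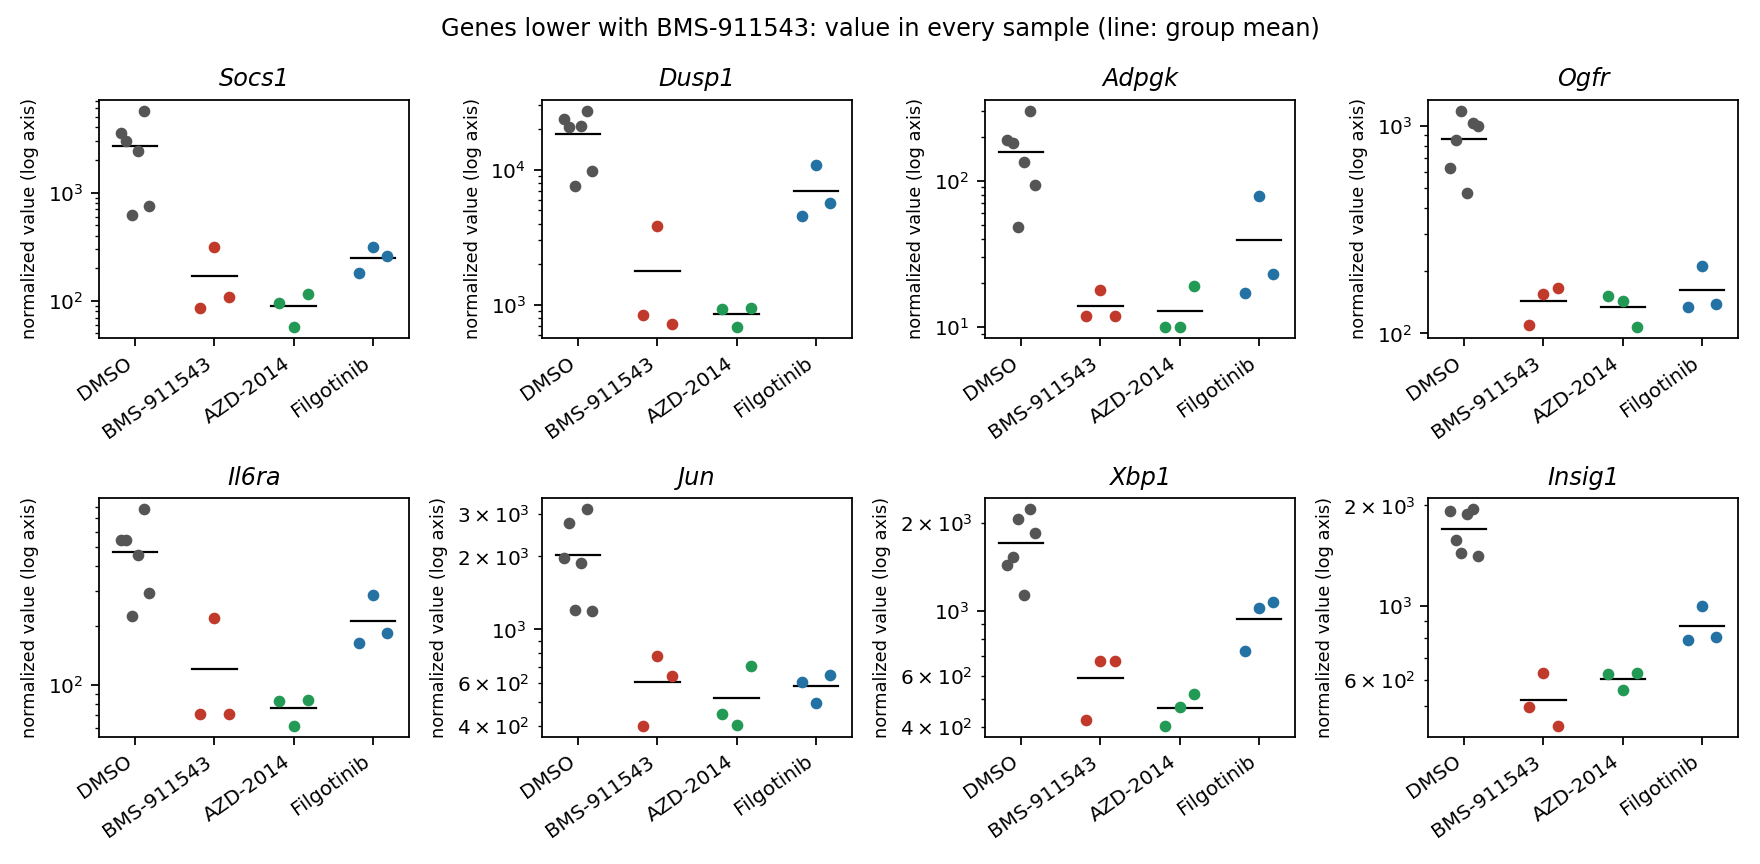
Normalized value (log axis) of 8 lowered genes in each sample of DMSO (n = 6), BMS-911543, AZD-2014 and Filgotinib (n = 3 each), with a line at the group mean. All BMS-911543 samples lie below all DMSO samples in each of the 8 genes, and for *Socs1* the AZD-2014 and Filgotinib samples also reach at most 314.

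The strongest falls were in genes that also varied among the vehicle samples. For the 184 that fell by over 1.5 on the log2 scale, the median SD of the log2 values within the 6 DMSO samples was 0.545, against 0.374 for all 1027 lowered genes and 0.331 over all tested genes. The median level of the 184 in each sample, relative to the DMSO mean, was -2.27, -1.30 and -1.95 in BMS-911543 replicates 1 to 3. The DMSO samples themselves lay between -0.55 (set 1 replicate 3) and 0.77 (set 2 replicate 2). These values describe the genes chosen by this comparison and are no test of it. In the AZD-2014 samples the median levels were -2.08, -2.43 and -1.81. They are measured from the same DMSO mean that took part in choosing the genes. AZD-2014 is named because it was the lowest group on this measure, so its values are no test either. Across the 168 samples of the remaining 56 CKIs the median was -0.25, with a range from -1.45 to 0.97. Median GC content was 50.3% for the 1027 lowered genes and 49.4% for all tested genes, median transcript length 3114 and 2807 bases, and the median number of exons 8 and 7. After removal of each sample's trend on GC content, in the fit blocked by replicate, 1432 genes fell and 190 rose.

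**Figure D3:**
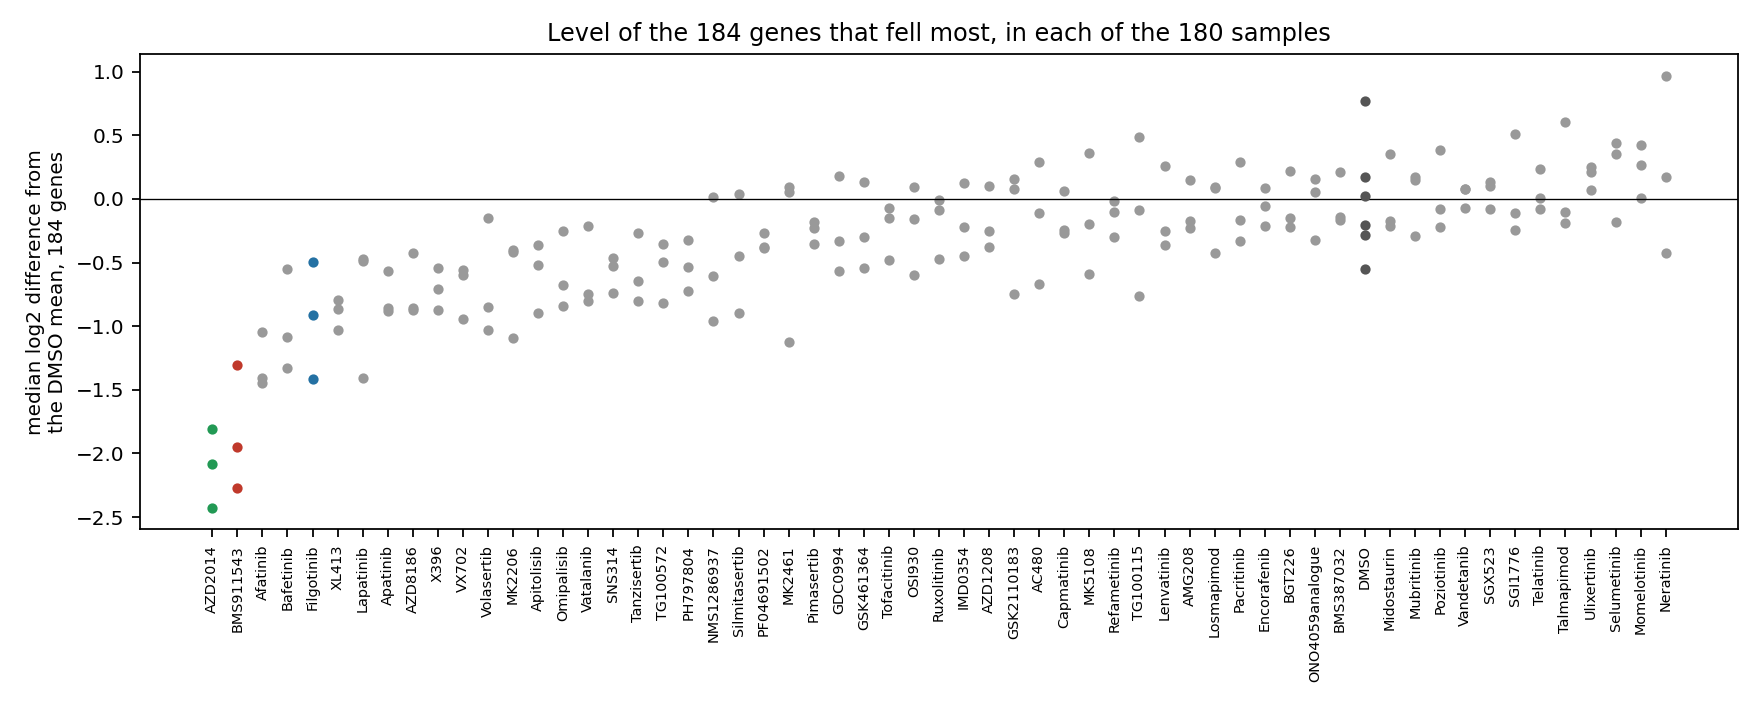
Median log2 difference from the DMSO mean over the 184 genes that fell by over 1.5, for each of the 180 samples, with groups ordered by their mean. AZD2014 (green) and BMS911543 (red) are the lowest groups, with means of -2.11 and -1.84, and the next group, Afatinib, has a mean of -1.30.

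In the JAK-STAT pathway some receptor genes fell, and the Janus kinase genes themselves did not pass the test. Of 29 tested receptors, kinases and STATs, 6 fell (20.7%, beside 8.08% of all genes) and 0 rose (beside 0.472%), with a median log2 fold change of -0.09 against 0.00 for all genes, and 6 fell and 2 rose with the replicate block. *Jak2*, the designed target, had values of 418, 399 and 413 in BMS-911543 and 186 to 517 in DMSO (log2 fold change 0.30, SE 0.27, adjusted p = 0.60). *Jak1*, *Jak3* and *Tyk2* had log2 fold changes of -0.19, -0.09 and 0.11, with adjusted p-values from 0.58 to 0.83. The members that fell were receptor and phosphatase genes. *Il6ra*, the receptor subunit that binds interleukin 6, had 71, 219 and 71 against 224 to 782 (log2 fold change -2.07, SE 0.32, adjusted p = 2.4e-07). *Ptpn1*, a phosphatase acting on JAK2 and TYK2, had 1017, 1337 and 994 against 1736 to 2376 (-0.87, adjusted p = 2.1e-07). *Ifngr2* (-0.68), *Csf2ra* (-0.65), *Il10rb* (-0.46) and *Ifngr1* (-0.22), which encode subunits of the receptors for interferon gamma, GM-CSF and interleukin 10, also fell. *Ifngr1* did so narrowly, with an adjusted p of 0.028 by limma.

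Of the 20 genes of STAT feedback and STAT-driven transcription, 3 fell (beside 8.08% of all genes) and 1 rose (beside 0.472%), with a median of -0.11. Besides *Socs1*, the falls were in *Cish*, another SOCS-family inhibitor, with 1687, 1544 and 1463 against 1993 to 2571, and in *Pim3*, a kinase gene at values of 31 or less in all 9 samples. *Socs3* (-0.39, adjusted p = 0.073 by limma) and *Socs2* (-0.15, adjusted p = 0.88 by limma) were not called. *Pim3* had a log2 fold change of -1.22, and of -1.01 without DMSO set 2 replicate 2, where it no longer passed the test (adjusted p = 0.17 by limma). *Bcl6*, a transcriptional repressor, rose to 408, 452 and 282 from 107 to 319 in DMSO (log2 fold change 1.11, SE 0.30, adjusted p = 0.0067), although its groups overlapped. *Cish* and *Pim3* were called in 12 of 22 and 11 of 21 alternative fits, so their calls depended on the samples and settings used.

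The direct targets other than JAK2 gave small differences in their own transcripts. *Nqo2* had 468, 411 and 463 in BMS-911543 and 382 to 489 in DMSO (log2 fold change 0.05, adjusted p = 0.88), and *Nqo1* had 36 to 49 against 29 to 66. *Lyn* had 3137 to 3579 against 3405 to 5425 (-0.29, adjusted p = 0.17). *Csf1r*, the receptor gene through which M-CSF keeps macrophages alive, had 29388, 27657 and 25951 in BMS-911543, all above the 24416 to 25418 of DMSO. Its log2 fold change was 0.14 (SE 0.06), with an adjusted p of 0.098 and, with the replicate block, of 0.045. Of the 35 NRF2 antioxidant and quinone genes, 2 fell (5.71%, beside 8.08% of all genes) and 0 rose. *Cbr3* fell by 1.00 and *Txnrd1* by 0.37, and the latter by 0.31 without DMSO set 2 replicate 2.

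Interferon-stimulated genes did not pass the test in either direction. Of 59 tested antiviral genes, 0 were called and 2 had an unadjusted p under 0.05 (limma). Of 17 GBP and IRG GTPases, which act against intracellular microbes, 0 were called and 0 had an unadjusted p under 0.05 (limma). Among all 12714 tested genes, 8.08% fell, 0.472% rose and 2369 had an unadjusted p under 0.05 by limma. With the replicate block 0 genes were called in both lists as well. The median log2 fold changes were 0.14 and 0.15. *Rsad2*, which encodes the antiviral enzyme viperin, had 26035, 23310 and 35760 in BMS-911543 and 18749 to 36278 in DMSO, a log2 fold change of -0.02 (SE 0.29, adjusted p = 0.99). *Cxcl10*, for an interferon-induced chemokine, had 69615 to 98630 against 56043 to 112277. *Cmpk2*, next to *Rsad2* on chromosome 12, had 7577, 8121 and 17266 against 10614 to 36530 (-0.62, SE 0.39, adjusted p = 0.41). The spread between DMSO samples was thus wide, and small differences in these genes could have been missed. *Ifnb1* itself had 118, 174 and 144 in BMS-911543, and 75 to 129 in 5 DMSO samples with 262 in DMSO set 2 replicate 1. Among 14 tested interferons and their inducers, *Irf8*, a macrophage lineage factor, fell from 3680 to 7541 in DMSO to 1515, 1754 and 2355 (log2 fold change -1.35, SE 0.31, adjusted p = 0.00056). *Irf3* rose by 0.48 (adjusted p = 0.033). Each of these calls is 7.14% of the 14, beside 8.08% lowered and 0.472% raised of all genes.

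Filgotinib, a compound directed at JAK1, offers a comparison within the Janus kinase family, but each CKI was used at its own concentration and the values are set side by side. Between BMS-911543 and Filgotinib, 1113 genes (8.75%) differed, with 731 higher (5.75%) and 382 lower (3%) in BMS-911543, and with the replicate block 1067 were higher (8.39%) and 684 lower (5.38%). Of the 1027 genes that BMS-911543 lowered, 970 also had a group mean below DMSO in Filgotinib, and 998 did in AZD-2014, an inhibitor of the kinase mTOR. Over all tested genes, Filgotinib had a median log2 fold change from DMSO of -0.035 and 1861 genes called lower. Of the same 1027, 208 were called lower and 9 higher in BMS-911543 than in Filgotinib. BMS-911543, Filgotinib and AZD-2014 were compared with the same DMSO samples. These samples took part in choosing the genes, so the shared direction was not tested. In the antiviral list, 23 of 59 genes were higher in BMS-911543 than in Filgotinib and 0 were lower, with a median log2 difference of 0.87 against -0.02 over all genes, beside 5.75% of all genes called higher. The GTPase list had 7 of 17 higher and a median of 1.14. *Mx1*, *Usp18* and *Stat2* differed by 1.85, 1.65 and 1.45. *Rsad2* had 15351, 11488 and 11473 in Filgotinib, below the 3 BMS-911543 samples (difference 1.14, SE 0.33, adjusted p = 0.014). *Il27*, a cytokine subunit gene, had 1041, 708 and 860 in Filgotinib and 4058, 3676 and 6329 in BMS-911543, a log2 difference of 2.40 (SE 0.42, adjusted p = 1.2e-05). *Tnfsf10*, the death ligand TRAIL, had 37 to 84 against 260 to 585, and *Steap4*, for a metalloreductase, had 20 to 32 against 101 to 261. *Tyk2* was also higher in BMS-911543, by 0.78 (adjusted p = 0.00065).

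Other genes were lower in BMS-911543 than in Filgotinib. *Trib1*, for a pseudokinase that feeds transcription factors to degradation, had 40, 104 and 59 against 300, 299 and 388 in Filgotinib and 155 to 191 in DMSO. *Id1*, an inhibitor of basic helix-loop-helix factors, had 34, 88 and 71 against 212, 341 and 303, while its DMSO values were 29 to 72. *Dusp1* was 2.31 lower (adjusted p = 0.00012), *Zbtb11* 2.06 lower and *Dusp4* (log2 difference -1.95) lower too. *Socs1* had 181, 314 and 258 in Filgotinib, and the difference of -0.77 (SE 0.64, adjusted p = 0.59) lay within the spread between replicates. *Ogfr* likewise had 134 to 211 in Filgotinib (difference -0.16, adjusted p = 0.92). Without BMS-911543 replicate 3 the comparison called 626 genes, without BMS-911543 replicate 1 it called 724, and without Filgotinib replicate 2 it called 680.

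**Figure D4:**
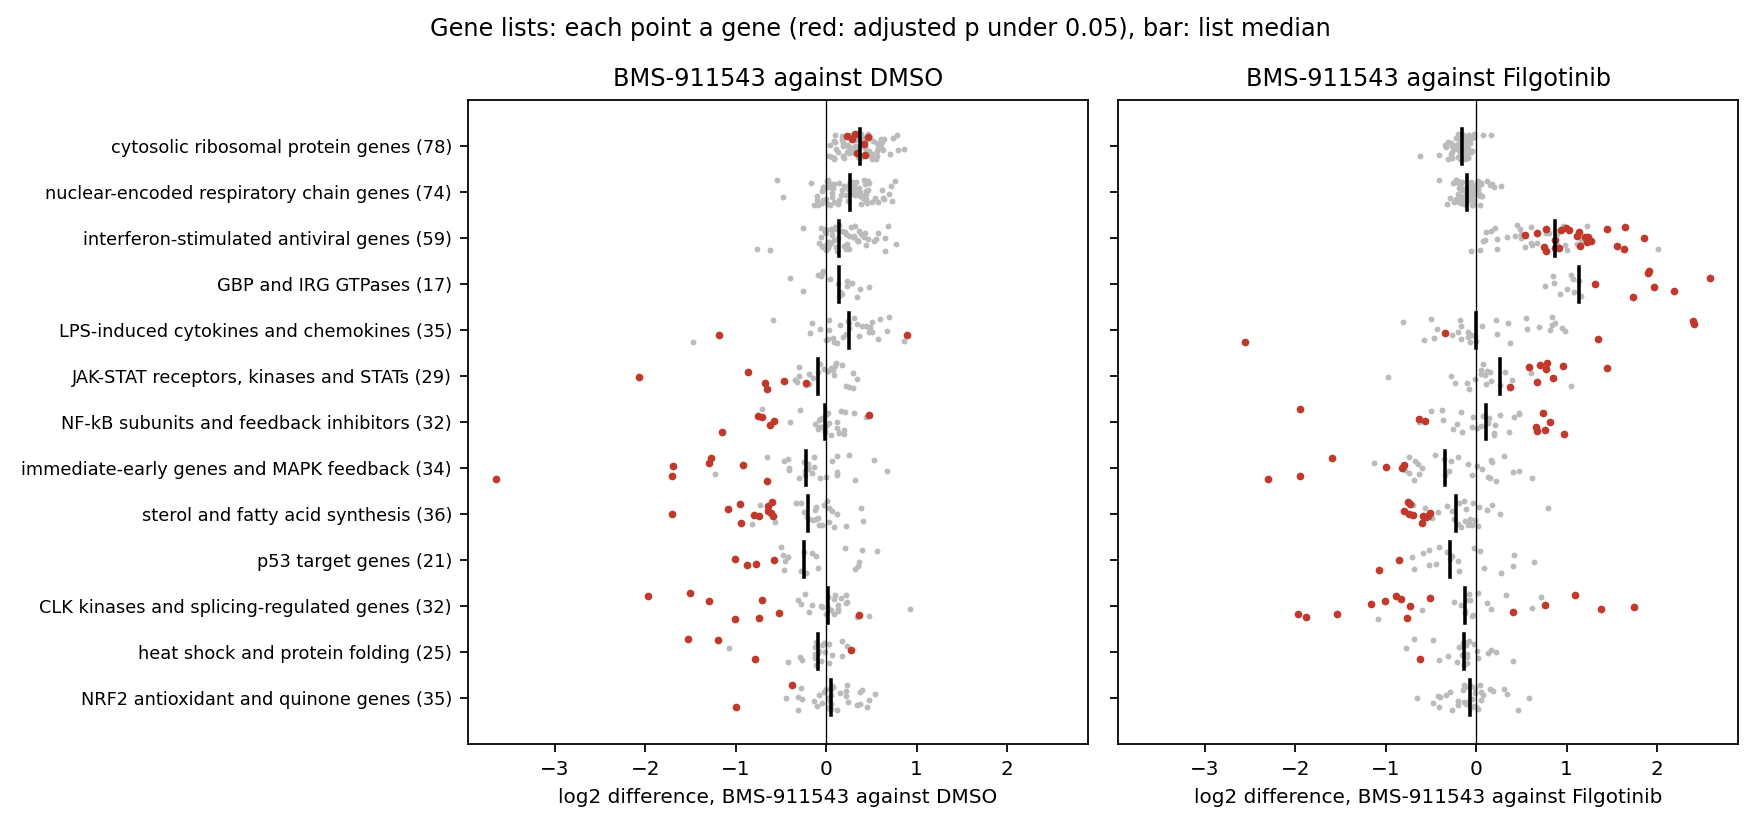
Log2 difference of each gene (point) in 13 lists, with the number of tested genes in brackets, for BMS-911543 against DMSO (left) and against Filgotinib (right). Red points passed the test and bars mark list medians, which lie at 0.38 for ribosomal protein genes on the left and at 0.87 for antiviral genes on the right, and both panels share the BMS-911543 samples.

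Few inflammatory genes were called. Of 35 LPS-induced cytokines and chemokines, 1 rose and 1 fell (2.86% each, beside 0.472% and 8.08% of all genes). The replicate block gave 4 rises and 1 fall (beside 1.42% and 11% of all genes). *Cxcl1*, the neutrophil-attracting chemokine gene, rose to 950, 1265 and 1640 from 622 to 786 in DMSO (log2 fold change 0.89, SE 0.19, adjusted p = 0.00027). *Csf1*, the M-CSF gene, fell to 324, 703 and 608 from 812 to 2156 (-1.19, SE 0.26, adjusted p = 0.00026). The NF-kB list had 5 falls (15.6%, beside 8.08% of all genes) and 1 rise (beside 0.472%) among 32 genes, with a median of -0.01. The falls were in *Chuk* (-1.15), which encodes the kinase IKK alpha, in the negative regulator *Tnfaip3* (-0.75), in the subunits *Relb* (-0.71) and *Nfkb2* (-0.62), and in *Nfkbiz* (-0.57, and -0.48 without DMSO set 2 replicate 2). *Tnip1*, a partner of the TNFAIP3 protein, rose by 0.48 (adjusted p = 0.047). *Nfkbia*, the most immediate NF-kB feedback gene, had 32097 to 36723 against 32236 to 41142 and was not called (adjusted p = 0.51).

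Immediate-early genes and MAP kinase feedback genes had 7 falls and 0 rises among 34 (20.6% lowered beside 8.08% of all genes, median log2 fold change -0.22), and 9 falls with the replicate block. *Jun*, a subunit of AP-1, had 401, 778 and 642 against 1187 to 3141 (log2 fold change -1.69, SE 0.26, adjusted p = 2.1e-07). *Junb* had 5989, 13035 and 9189 against 13235 to 24113 (-0.92, adjusted p = 0.00051). *Phlda1* and *Klf4* fell by 1.27 and 1.29, but *Klf4* was at 18 or less in all 9 samples and its groups overlapped. *Atf3*, a stress-induced repressor, completed the 7.

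Several enzymes of cholesterol synthesis fell. Of 36 genes of sterol and fatty acid synthesis, 11 fell and 0 rose (30.6% called beside 8.08% of all genes lowered, median -0.20), with 14 falls under the replicate block. *Insig1*, the protein that holds SREBP in the endoplasmic reticulum, had 499, 630 and 438 in BMS-911543 and 1411 to 1952 in DMSO (log2 fold change -1.70, SE 0.18, adjusted p = 2.5e-12). The groups were far apart, and the DMSO samples varied little. Enzymes of the cholesterol pathway followed, with *Sqle* at 465 to 552 against 651 to 1232 (-0.95, adjusted p = 9.4e-05) and *Cyp51* at 515 to 711 against 999 to 1280 (-0.94, adjusted p = 1.2e-09). *Idi1* and *Hsd17b7* fell by 0.80 and 0.75, and *Hmgcs1*, *Msmo1*, *Sc5d* and *Stard4* by 0.59 to 0.65. *Mylip*, which encodes a ubiquitin ligase, also fell (-1.09, adjusted p = 0.00056). In AZD-2014 the same direction was seen for *Insig1*, *Sqle* and *Cyp51*, with log2 fold changes from DMSO of -1.48, -0.57 and -0.78.

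Some splicing and folding factors fell. Of 32 CLK kinases and splicing-regulated genes, 7 fell (21.9%, beside 8.08% of all genes) and 1 rose (beside 0.472%), with a median of 0.02. With DMSO set 1 alone 3 of them fell and 0 rose, beside 694 falls over all tested genes. With DMSO set 2 alone 6 fell and 1 rose, beside 922 falls over all tested genes. *Srsf6* and *Srsf1*, for SR proteins that guide splice site choice, had 356, 1001 and 620 against 1713 to 4113, and 86, 161 and 107 against 191 to 424. Their log2 fold changes were -1.97 (SE 0.26, adjusted p = 3e-09) and -1.29 (SE 0.21, adjusted p = 9.6e-07). *Ccnl1* and *Ccnl2*, cyclin L genes whose products bind splicing factors, fell by 1.00 and 0.74, *Ccnl1* with overlapping groups (92 to 133 against 78 to 416). In the list of heat shock and protein folding genes, 3 of 25 fell and 1 rose, beside 8.08% and 0.472% of all genes. *Xbp1*, a transcription factor of the unfolded protein response, had 424, 672 and 673 against 1134 to 2226 (-1.52, SE 0.22, adjusted p = 1e-07). *Sdf2l1* and *Dnajb9*, chaperone genes of the endoplasmic reticulum, fell by 1.20 and 0.79, and *Hspa8* rose by 0.28.

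Smaller groups of falls lay in other lists. Of 21 p53 target genes, 4 fell (19.0%, beside 8.08% of all genes) and 0 rose, with a median of -0.24. *Plk2* had 691, 472 and 505 against 1004 to 1394 (log2 fold change -1.01, SE 0.13, adjusted p = 1.7e-09), and *Mdm2*, the ubiquitin ligase for p53, had 1441, 1397 and 979 against 1721 to 2027 (-0.58, adjusted p = 0.0016). *Mdm2* was also lower in BMS-911543 than in Filgotinib (-0.85), than in AZD-2014 (-0.76) and than in the mean of the other CKIs (-0.77), and each of these differences passed the test. In the list of glycolysis and hypoxia, *Pdk1* and *Hif1a* fell by 1.81 and 1.16 (by 1.63 and 1.03 without DMSO set 2 replicate 2), and 22 others were not called (8.33% lowered, near the share of all genes). *Tiparp*, a target of the aryl hydrocarbon receptor, had 1687, 2561 and 1428 against 2995 to 8313 (-1.53, adjusted p = 2.8e-06). It was the only 1 called of 14 genes of that pathway (7.14%, near the 8.08% of all genes that fell). *Cyp1a1*, the classic target of the receptor, was at 0 in all 9 samples. *Acot1*, an acyl-CoA thioesterase gene, had 2, 4 and 4 against 14 to 55, and *Angptl4*, a PPAR target, rose by 1.20 (28 to 40 against 7 to 20).

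The remaining lists held few calls. *Gars* was the 1 called gene of 28 in the list of the ATF4 response and tRNA synthetases, *Ccna2* the 1 of 40 in the cell cycle list and *Tgfbr2* the 1 of 13 in the ID gene and TGF-beta list, with falls of 1.14, 1.15 and 0.64. The lowered shares were 3.57%, 2.5% and 7.69%, beside 8.08% of all genes. Without DMSO set 2 replicate 2, *Gars* fell by 0.97 and *Ccna2* by 1.02. The replicate block gave 1 rise in the first of these lists and 2 falls in the second. *Mcoln1* (-1.14, and -1.01 without DMSO set 2 replicate 2) and *Tfe3* (-0.56), a lysosomal channel gene and a regulator of lysosome genes, were the falls among 34 genes of lysosome and autophagy (5.88%). *Ypel3* fell and *Bcl6* rose among 18 FOXO-linked genes (5.56% each, beside 8.08% lowered and 0.472% raised of all genes). Of 240 numbered Zfp genes, 11 fell and 0 rose (4.58%, beside 8.08% of all genes), with *Zfp282* lowest at -2.22, and with the replicate block 16 fell and 1 rose. Of 36 genes of CSF1R signaling and macrophage identity, 17 mitochondrially encoded genes and 18 snoRNA host and growth-arrest transcripts, 0 were called by limma, while 6, 0 and 5 of them had an unadjusted p under 0.05. Among all 12714 tested genes, 8.08% fell, 0.472% rose and 2369 had an unadjusted p under 0.05. With the replicate block 1 rose and 1 fell in the first of these lists and 2 rose in the last.

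The raised genes were few and their changes modest. The ribosomal protein genes lay above the DMSO mean, mostly without passing the test. All 78 tested genes of cytosolic ribosomal proteins had a log2 fold change above 0 (beside 6429 of all 12714), with a median of 0.38. Of the 78, 7 rose (8.97% beside 0.472% of all genes), and 26 rose with the replicate block (beside 1.42% of all genes). DMSO set 1 alone gave 0 rises, DMSO set 2 alone 4, and no filter on low values 1 of 86. The block with the mitochondrial share as a covariate gave 36. *Rps3* had 7092, 7934 and 7968 in BMS-911543 and 4430 to 6603 in DMSO (log2 fold change 0.47, SE 0.15, adjusted p = 0.027). Together these genes took 2.59%, 2.70% and 2.65% of all values in BMS-911543 and 1.81% to 2.20% in DMSO, which did not overlap. The exact two-sided permutation test over the 84 splits gave p = 0.024, and 0.12 after adjustment over 5 technical measures. With samples exchanged only within a replicate number, an alternative chosen after seeing the data, an exact two-sided permutation test over 27 splits gave p = 0.074, the smallest this design allows. The same genes had a median of 0.07 against the mean of the other 57 CKIs, with 0 called, and -0.15 against Filgotinib, with 0 called. Of 74 nuclear-encoded genes of the respiratory chain, 61 lay above 0 (median 0.26) and 0 were called, with 27 at an unadjusted p under 0.05 by limma. Among all 12714 tested genes, 2369 had an unadjusted p under 0.05. With the replicate block 1 of the 74 rose and 2 fell. Of 38 proteasome genes, *Psma6* rose by 0.59 (2.63% raised, beside 0.472% of all genes), and 3 rose with the replicate block (beside 1.42%).

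Single genes that rose included regulators of the immune response. *Ptger2*, a prostaglandin E2 receptor gene, had 316, 418 and 345 against 177 to 262 (log2 fold change 0.69, SE 0.16, adjusted p = 0.00061). *Cd74*, the invariant chain of MHC class II, had 6726, 6135 and 5878 against 2284 to 5746 (0.79, adjusted p = 0.030), and *F11r*, a junctional adhesion molecule gene, had 326, 391 and 398 against 167 to 249 (0.86, adjusted p = 0.011). *Alas1*, the first enzyme of heme synthesis, had 1140, 1274 and 1072 against 819 to 976 (0.38, SE 0.08, adjusted p = 7.7e-05). *Apbb1ip*, *Fgd3*, *Nit2*, *Vrk3*, *Alkbh4* and *Zfp119a* rose by 0.60 to 0.73. *Cd74* was called in 11 of 22 alternative fits, *Nit2* in 10 and *Cxcl1*, *Ptger2* and *Vrk3* in all 22.

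**Figure D5:**
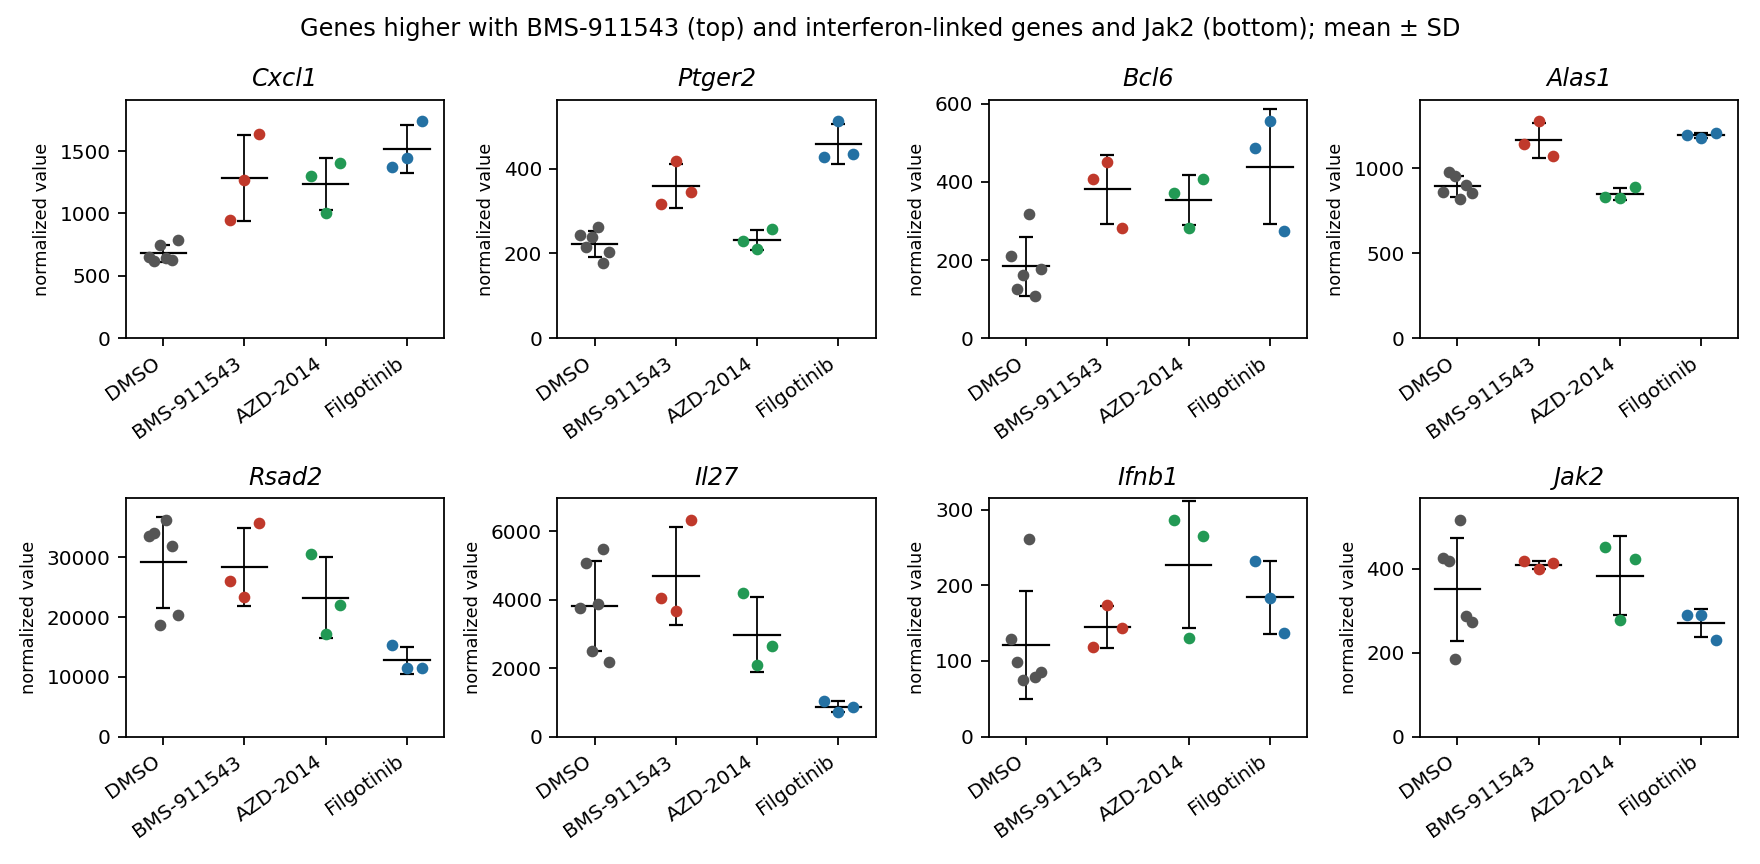
Normalized value of each sample (points) with mean ± SD for 4 raised genes (top) and 4 genes that were not called (bottom), in DMSO (n = 6), BMS-911543, AZD-2014 and Filgotinib (n = 3 each). *Cxcl1*, *Ptger2* and *Alas1* have all BMS-911543 points above all DMSO points, *Bcl6* does not, and *Rsad2* and *Il27* have their lowest points in Filgotinib.

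Most of the lowered genes were also low against the rest of the panel. Against the unweighted mean of the other 57 CKIs, with no DMSO sample in the contrast, 1283 genes (10.1%) differed, of which 1223 (9.62%) were lower and 60 (0.472%) higher in BMS-911543. The replicate block gave 1646 lower (12.9%) and 100 higher (0.787%). Of the 1027 genes lowered against DMSO, 871 were called lower here as well, which is 84.8% of the first list and 71.2% of the second. Of the 60 raised genes, 14 were called higher here. Both comparisons share the 3 BMS-911543 samples, so these overlaps describe the same treated cells. *Dusp1* (-3.06), *Socs1* (-2.86), 0610012G03Rik (-2.84), *F8a* (-2.80), *C1qbp* (-2.77), *Scand1* (-2.70), *Adpgk* (-2.69) and *Mtarc2* (-2.58) had the lowest differences from the other CKIs among the genes that also fell from DMSO without overlap. *Irf8* did not pass this test, with a difference of -0.41 (SE 0.25, adjusted p = 0.46). Higher than in both references were 1110002J07Rik, *F11r*, *Ptger2*, *Arl5c*, *Cxcl1*, *Alas1*, *H2-Q6* and *Irf3*, with differences of 0.38 to 0.69 from the other CKIs. Leaving out BMS-911543 replicate 1 gave 586 called genes in this comparison, and leaving out replicate 3 gave 743.

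AZD-2014, an inhibitor of the kinase mTOR, was the CKI whose samples lay closest to BMS-911543 in the plot of the 184 lowered genes, and was compared after this was seen. Between BMS-911543 and AZD-2014, 250 genes (1.97%) differed, 100 higher (0.787%) and 150 lower (1.18%) in BMS-911543. The replicate block gave 266 higher (2.09%) and 315 lower (2.48%). Of the 1027 genes that BMS-911543 lowered, 1000 did not pass this test, 25 were lower and 2 higher than in AZD-2014. For 851 of the 1027 the log2 difference was under 0.5 in size, and the median SE of a difference was 0.26, so smaller differences could have been missed. *Socs1* had 96, 57 and 115 in AZD-2014 (difference 0.73, SE 0.64, adjusted p = 0.78), *Dusp1* 927, 683 and 952 (0.65, SE 0.46, adjusted p = 0.67) and *Ogfr* 151, 143 and 107 (0.09, SE 0.44, adjusted p = 0.99). Some genes did separate the 2 CKIs. *Phlda1* had 79, 157 and 57 in BMS-911543 and 19, 27 and 62 in AZD-2014, and was 1.46 higher (SE 0.35, adjusted p = 0.0057). *Plk2* was 0.55 lower, *Mnt*, a partner of MAX, 1.96 lower and *Ifngr1* 0.63 lower than in AZD-2014. *Alas1* and *Ptger2* were higher, by 0.45 and 0.63. The concentrations of the CKIs differed, and the comparison uses the same 3 BMS-911543 samples that chose the 1027 genes.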

How the data were processed

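SMART-seq2 libraries were made from polyA RNA of 180 BMDM samples with Tn5. Per the submitters' notes and methods, reads were aligned to mm10 with TopHat2 2.1.1, and bedtools 2.29.2, R 3.6.2 and DESeq2 were used. The authors counted reads on RefSeq exons, scaled each sample on invariant genes and deposited rounded values, a score called normalized value here. Whole reads could not be recovered, so no count test was run. Strand use in counting is not given in the sources used here. For this reason overlapping or near-identical genes, such as *Rps3a3* or the pseudogenes Gm10240, Gm11263 and Gm10095, are uncertain.

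Values were tested with limma 3.58.1 in R 4.3.3 on log2(value + 1) with a variance trend, in 1 fit of 59 groups and 180 samples, for 12714 genes with a mean of at least 10. p-values were adjusted by Benjamini and Hochberg over these genes, and a gene was called at an adjusted p under 0.05. Fold changes understate the change of low genes. Contrasts were BMS-911543 against DMSO, against the mean of the other 57 CKIs, against Filgotinib and, added later, against AZD-2014. Technical measures were compared by exact permutation of 3 and 6 samples, whose smallest two-sided p is 0.0238. The script was tested on simulated data.

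Same-numbered samples of BMS-911543 and the DMSO sets deviated together (correlation of deviations from group means 0.12 to 0.55 in 9 pairs, against -0.39 to 0.13 in 18 pairs with different numbers). The highest values were between the DMSO sets. Same-numbered pairs of BMS-911543 with DMSO had 0.12 to 0.30, so their pairing was weaker. SEs and adjusted p-values are from the fit without a replicate block unless stated, and the fit with the block is given where it changes a result. The pairing comes from the replicate numbers in the labels. All 180 columns matched a sample by title.

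Named genes are up to 14 calls each way without overlap of the groups and a mean of at least 50, up to 6 calls per list (otherwise the 2 most abundant), 13 set genes, and up to 8 and 6 each way against the other CKIs and Filgotinib. Not every such gene is reported. *Atf3*, *Hmgcs1*, *Msmo1*, *Sc5d*, *Stard4*, *Mx1*, *Usp18*, *Stat2*, *Socs2*, *Socs3* and *Cyp1a1* were named after their values were seen. The members and lists were chosen with earlier results of these data known. Promoter sequences are from RefSeq (GRCm38.p6) and were found for 71.8% of tested genes. Python 3.11.15 with pandas 2.3.3, SciPy 1.17.1 and matplotlib 3.10.9 made the summaries and plots. Depth limits low genes, for which values near 10 carry a large counting error.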

Additional observations from a re-analysis of the deposited data

Results flagged for a closer look

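Of 147 values examined in the 6 DMSO samples, 13 (8.84%) had a highest or lowest sample far from the others by Dixon's test, where chance flags about 1 in 20 groups. Of these, 10 were in DMSO set 2 replicate 2 and 3 in DMSO set 2 replicate 1. In DMSO set 2 replicate 2, *Tomm40* was 960 (other vehicle samples 318 to 464), *Pdk1* 1056 (446 to 561), *Hif1a* 2501 (1196 to 1684), *Gars* 1610 (638 to 972), *Ccna2* 3475 (1598 to 2175), *Mcoln1* 445 (229 to 286), *Nfkbiz* 15380 (9500 to 11594), *Txnrd1* 2886 (2114 to 2252) and *Pim3* 31 (10 to 17). The number of tested genes at 0 in this sample was 3, against 0 to 1 in the others. In DMSO set 2 replicate 1, *Ifnb1* was 262 (75 to 129), *Plk2* 1394 (1004 to 1122) and *Cyp51* 999, the lowest of the 6 (1199 to 1280). All flagged genes but *Ifnb1* were called lower in BMS-911543, and in each of them every BMS-911543 value lay below every DMSO value. Over all tested genes, 8.08% were called lower and 6.72% had all BMS-911543 samples below all DMSO samples. Only named genes were examined, and most were named because they were called, many also because the groups did not overlap. Their calls therefore do not show that the outlying vehicle samples left the results unaffected.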

How the results depend on the processing

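Against DMSO, leaving out single samples gave 642 to 1256 called genes, 17 to 134 higher and 606 to 1122 lower, and the lower genes outnumbered the higher ones in every setting. A replicate block gave 181 higher genes, and the block with the mitochondrial share as a covariate gave 1850 called genes with 358 higher, so that 80.65% of calls were lower against 94.48%. Requiring a log2 fold change of at least 1 left 502 genes (5 higher, 497 lower), fitting only the groups compared left 534 (14 and 520), DMSO set 1 alone 720 with 26 higher and DMSO set 2 alone 950 with 28 higher. Without a filter on low values 188 were higher (82.75% of calls lower), with median-of-ratios scaling 99, and with a correction for GC content, chosen after seeing the data, and the block 190. Against the other CKIs, a log2 difference of at least 1 left 351 genes, and leave-outs gave 586 to 1230. Against Filgotinib the replicate block gave 1751, the block with mitochondrial share 2028, GC content with the block 1886 and a difference of at least 1 gave 469, and leave-outs gave 626 to 1112. The cause of these shifts was not tested.

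Among 142 named genes the block changed the call against DMSO for *Csf1r* and *Mfsd7a* (adjusted p = 0.049 by limma with the block) and for no other. Some genes that were not called changed sign. *Jak3* was 0.039 with the GC correction, with or without the block, and with DMSO set 1 alone *Nqo1* was 0.021, *Rsad2* 0.0049, *Skil* 0.0030 and mt-Rnr2 0.16. Over fits without single samples, *Eef2* ranged from -0.016 to 0.078, *Hsp90ab1* ranged from -0.0027 to 0.14, *Id2* ranged from -0.42 to 0.0076, *Irgm1* ranged from -0.18 to 0.12, *Jak3* ranged from -0.18 to 0.0065, *Nqo1* ranged from -0.21 to 0.048 on the log2 scale. Likewise, *Rsad2* ranged from -0.20 to 0.11, *Skil* ranged from -0.31 to 0.012, *Slc3a2* ranged from -0.0085 to 0.24, *Steap4* ranged from -0.16 to 0.52, *Tnfsf10* ranged from -0.17 to 0.41, mt-Rnr2 ranged from -0.13 to 0.14. No named gene that was called against DMSO changed sign in any setting run. Depth limits low genes such as *Pim3*, *Klf4* and *Acot1*.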
